A study of Mus musculus with 21 samples.

Results

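The 10 genes described here carry the kidney's handling of phosphate, calcium and vitamin D: Kl (Klotho), Fgfr1, Slc34a1, Slc34a3, Cyp27b1, Cyp24a1, Vdr, Pth1r, Trpv5 and Calb1. They were chosen by name, with earlier results of these data known. All 10 of the 10 were found among the 21004 genes of the raw count table. RNA was sequenced from whole kidneys of female apoE knockout mice on a C57BL/6J background, which were 18 weeks old after 14 weeks on their diets from an age of 4 weeks. The Con group (5 mice) ate a control diet, the Ade group (6 mice) the same diet with 0.2% adenine, and the Ade + IMC group (6 mice) adenine at that dose with 0.06% iodomethylcholine. Adenine feeding leads to crystals in the tubules and is used to model chronic kidney disease. Iodomethylcholine (IMC) blocks a gut bacterial enzyme that makes trimethylamine from choline. All groups lacked apoE, a state that raises plasma cholesterol in mice, so no animal with an intact Apoe gene serves as a reference. The labels list 21 mice, of which 17 were analyzed, and the 4 mice fed IMC without adenine were not analyzed here. The mouse numbers begin with 2, 3 or 4 in every group, and the sources do not say what this digit stands for.

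The kidney holds plasma phosphate and calcium steady under the control of parathyroid hormone, FGF23 from bone and the active form of vitamin D. Klotho, made mainly in the distal tubule and also in the proximal tubule, joins FGF receptors to form the receptor for FGF23, which lowers phosphate reabsorption through the sodium-phosphate cotransporters of the proximal tubule. Cyp27b1 makes the active hormone in the proximal tubule, Cyp24a1 breaks it down, and the vitamin D receptor (Vdr) turns on calcium transport genes of the distal nephron such as Trpv5 and Calb1. Loss of Klotho is a known feature of chronic kidney disease.

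The genes lie apart from each other in the genome. In the GRCm38 annotation, the build called mm10 in the study, Kl takes up 150952607 to 150993817 of chromosome 5 and Cyp27b1 127048250 to 127053006 of chromosome 10, both read from the plus strand. Trpv5 spans 41652173 to 41680769 on the minus strand of chromosome 6, beside its relative Trpv6 at 41620624 to 41636405. RefSeq start sites on GRCm38.p6 gave a window of 250 upstream bases for 7 of the 10 genes. The windows of Kl, Cyp27b1 and Trpv6 are printed because Klotho leads the results below and the other pair rose on adenine while most of the listed genes fell. Capitals mark matches on either strand to AGGTCA or GGGTCA, half-sites of the kind bound by nuclear receptors such as the vitamin D receptor, or to TGACG, the core of the cAMP response element.
Kl, chr5:150952357-150952606, plus strand: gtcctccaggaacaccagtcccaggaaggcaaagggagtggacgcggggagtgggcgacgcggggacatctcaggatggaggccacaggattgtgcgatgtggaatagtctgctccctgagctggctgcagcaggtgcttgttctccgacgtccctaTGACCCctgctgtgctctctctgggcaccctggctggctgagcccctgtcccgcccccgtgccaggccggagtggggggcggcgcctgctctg
Cyp27b1, chr10:127047996-127048245, plus strand: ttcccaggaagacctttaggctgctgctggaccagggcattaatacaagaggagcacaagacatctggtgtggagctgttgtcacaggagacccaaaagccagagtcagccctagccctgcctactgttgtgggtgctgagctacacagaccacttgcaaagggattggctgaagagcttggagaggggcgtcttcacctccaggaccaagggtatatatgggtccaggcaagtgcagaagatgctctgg
Trpv6, chr6:41636406-41636655, minus strand: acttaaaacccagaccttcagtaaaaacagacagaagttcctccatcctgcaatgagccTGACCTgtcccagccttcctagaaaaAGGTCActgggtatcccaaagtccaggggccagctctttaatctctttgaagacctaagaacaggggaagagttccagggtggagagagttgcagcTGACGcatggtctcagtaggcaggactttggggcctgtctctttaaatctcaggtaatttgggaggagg
Among all 32851 upstream windows of this length, 14% held AGGTCA, 11.6% GGGTCA, 17.8% TGACG and 12.4% the TATAAA box. The Kl window held 1 GGGTCA match and was rich in G and C, at 66.8% against a median of 52.4% over all windows. The Cyp27b1 window held none of the 4 motifs. The Trpv6 window held 2 AGGTCA matches and 1 TGACG match, none of which overlap. The Slc34a3 window also held 2 AGGTCA matches, that of Trpv5 held 1 TATAAA, 1 of the 3 Pth1r windows held TGACG, and that of Vdr, which lies inside the longest annotated extent of the gene, held no match. The Slc34a1 window also lies inside the annotated gene, and its start matched no annotated transcript start, so its letters are not described. These matches are letters in a short window and say nothing of binding.

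Libraries held 5444833 to 11680809 reads in genes. Levels below are in CPM, which are counts set relative to the library total after scaling by edgeR's TMM factors, and a gene was called at a Benjamini-Hochberg adjusted p below 0.1, the threshold in the study's methods. The kidney label fitted the data in that all segment markers were read: the 8 proximal tubule markers summed to 7789 to 10233 CPM in the Con mice. These markers were lower on adenine, as were those of other tubule segments. Beside them stood rises of fibroblast, macrophage, lymphocyte and injured tubule markers. All 3 erythroid markers were called lower on adenine, with or without IMC. Ade + IMC replicate 4 stood farthest from its group, with a chi-square per degree of freedom of 44.3 to 75.4 against the other 5 mice, and leaving it out changed no call among the 10 genes. In whole kidney, fewer cells of a type and less RNA per cell cannot be told apart.

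Adenine feeding was set against the control diet to ask which of these genes change in the diseased kidney. The FGF23 co-receptor Kl, both phosphate transporters, Cyp24a1, Vdr and Pth1r fell, Calb1 fell slightly, Cyp27b1 and Fgfr1 rose, and Trpv5 did not pass the test. Thus 9 of the 10 genes were called, 7 lower and 2 higher. Adenine moved most of the transcriptome, and 67.3% of all 14612 genes tested were called, 32.2% as lower and 35.1% as higher. The median absolute log2 fold change was 1.46 over the 10 genes and 0.421 over all genes. The 10 genes were chosen with earlier results of these data known, so these medians are only a description. Of the 10 genes, 8 had values in the Ade mice that did not overlap those of the Con mice, which was so for 42.9% of all genes tested.

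**Figure D1:**
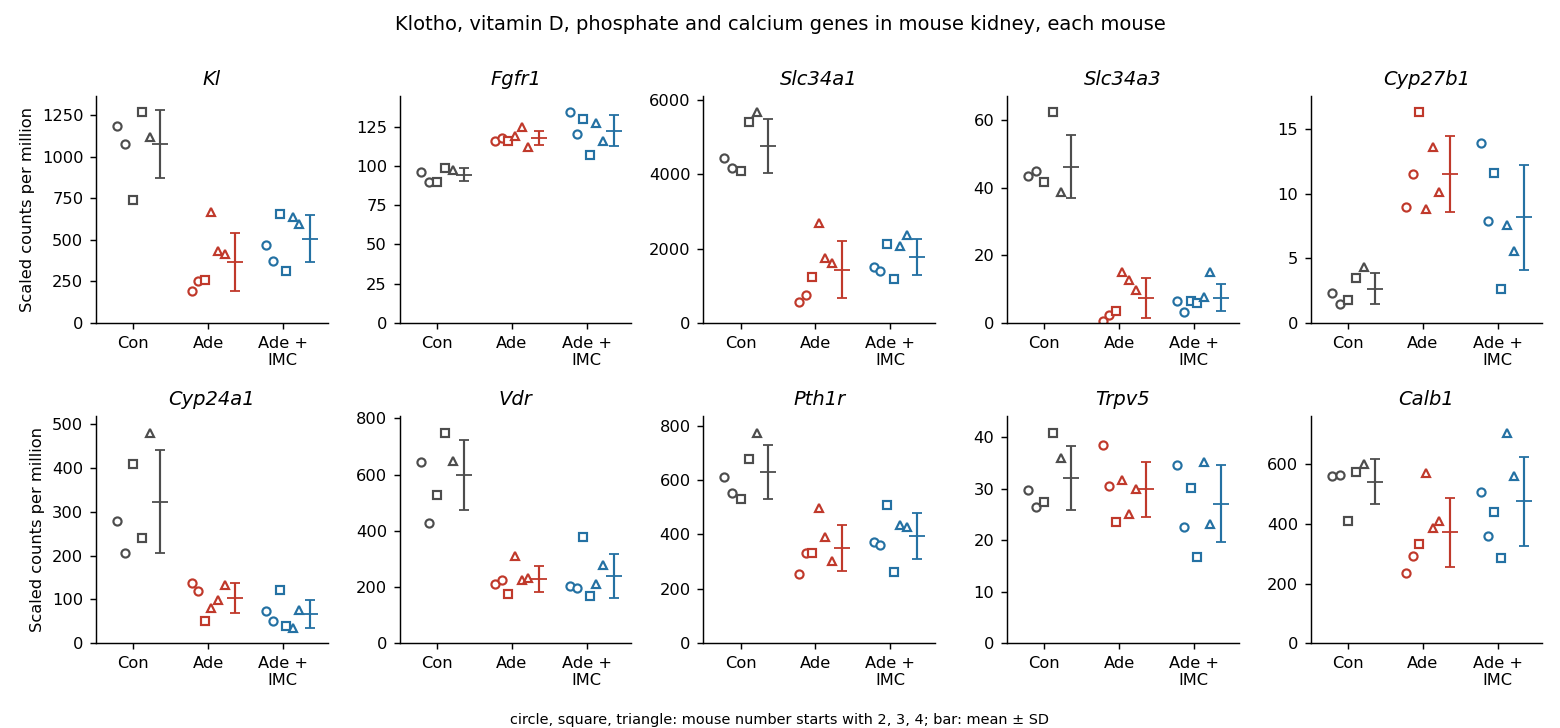
CPM of each of the 10 genes (vertical axes from 0) in every Con, Ade and Ade + IMC mouse, with the mean ± SD of the group beside the points and the point shape giving the digit with which a mouse number starts. Kl in the Ade mice sits between 193 and 665 CPM, below all Con mice, and the 3 lowest Ade mice are those whose numbers begin with 2 or 3.

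Kl read 1186, 1075, 738, 1266 and 1121 CPM in the 5 Con mice. In the 6 Ade mice it ranged from 193 through a median of 335 to 665 CPM. The groups did not overlap, and the Ade mean was 34.2% of the Con mean. The fitted log2 fold change was -1.54 ± 0.28 (SE), a 2.91-fold lower level (edgeR quasi-likelihood test, adjusted p = 0.000303). Kl varied more among the Ade mice (coefficient of variation 47.2%) than among the Con mice (18.8%). Among mice numbered from 2 the log2 difference was -2.36, among those numbered from 3 it was -1.91 and from 4 -1.19. Here and in the differences by digit below, the digit 3 holds 1 Ade mouse and the digit 4 holds 1 Con mouse. Kl is read here from 5 exonic blocks of 9328 bases that no other annotated gene shares.

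Fgfr1, the receptor that Klotho turns into a receptor for FGF23, went the other way. It read 96.2, 90, 89.5, 98.6 and 97.6 CPM in the Con mice and 112 to 125 CPM, with a median of 117, in the Ade mice. The ranges did not overlap although the change was small, with a log2 fold change of 0.32 ± 0.062 (SE, adjusted p = 0.000523). Fibroblasts also express Fgfr1, and all 5 fibroblast markers were called higher, their sum going from 199 to 242 CPM in the Con mice to 1830 to 2442 CPM in the Ade mice. Their part in the Fgfr1 result was not tested.

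Slc34a1, the main phosphate cotransporter of the proximal tubule (NaPi-2a), was the most abundant of the genes. It read 4451, 4169, 4103, 5420 and 5668 CPM in the Con mice and 575 to 2694 CPM, with a median of 1421, in the Ade mice. All Ade mice were below all Con mice (log2 fold change -1.73 ± 0.33, SE, adjusted p = 0.000448). Slc34a3 (NaPi-2c), the cotransporter of lower abundance, fell further. It read 43.3, 45, 41.7, 62.2 and 38.7 CPM in the Con mice and 0.639 to 14.9 CPM, with a median of 6.71, in the Ade mice. The lowest Ade mouse had 5 reads of Slc34a3, whereas no Con mouse had fewer than 296. The log2 fold change was -2.65 ± 0.46 (SE, adjusted p = 0.000229), and the Ade mean was 15.8% of the Con mean. Its log2 difference was -5.22 in mice with numbers starting with 2 and -1.65 in those starting with 4. Slc34a1 shares 545 of its 4676 exonic bases with Pfn3 on the opposite strand, and the use of strand in counting is not given in the sources used here.

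The pair of enzymes that make and break active vitamin D moved in opposite directions. Cyp27b1, the 1-alpha-hydroxylase, read 2.29, 1.44, 1.76, 3.48 and 4.31 CPM in the Con mice, or 10 to 33 reads. In the Ade mice it ranged from 8.79 to 16.3 CPM with a median of 10.8, all above the highest Con mouse. The rise was 4.33-fold (log2 fold change 2.11 ± 0.27, SE, adjusted p = 2.07e-05). Macrophages can also make Cyp27b1, and all 5 macrophage markers were called higher, from a sum of 164 to 202 CPM to one of 1064 to 1769 CPM. Their part in the Cyp27b1 result was not tested. Cyp24a1, the 24-hydroxylase, read 279, 206, 410, 241 and 481 CPM in the Con mice. It ranged from 49.9 through 109 to 137 CPM in the Ade mice, below all Con mice (log2 fold change -1.64 ± 0.27, SE, adjusted p = 0.000137). Cyp24a1 shares 83 of 3560 exonic bases with Pfdn4 on the opposite strand.

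Set against each other within each mouse, the log2 ratio of Cyp24a1 to Cyp27b1 reads fell from 6.93 ± 0.62 (SD, n = 5) in Con to 3.11 ± 0.83 (SD, n = 6) in Ade mice. The difference of -3.82 on the log2 scale had an exact two-sided permutation p of 0.00216, the smallest that the 462 splits allow, and 0.0104 after adjustment over the 24 ratio tests made. The ratio of Slc34a3 to Slc34a1 reads also fell, by 1.37 on the log2 scale, with a permutation p of 0.013 and an adjusted value of 0.024. The Ade mice overlapped the Con mice in this ratio. These are ratios of reads and not of reads per length, so their levels do not rank the genes.

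**Figure D2:**
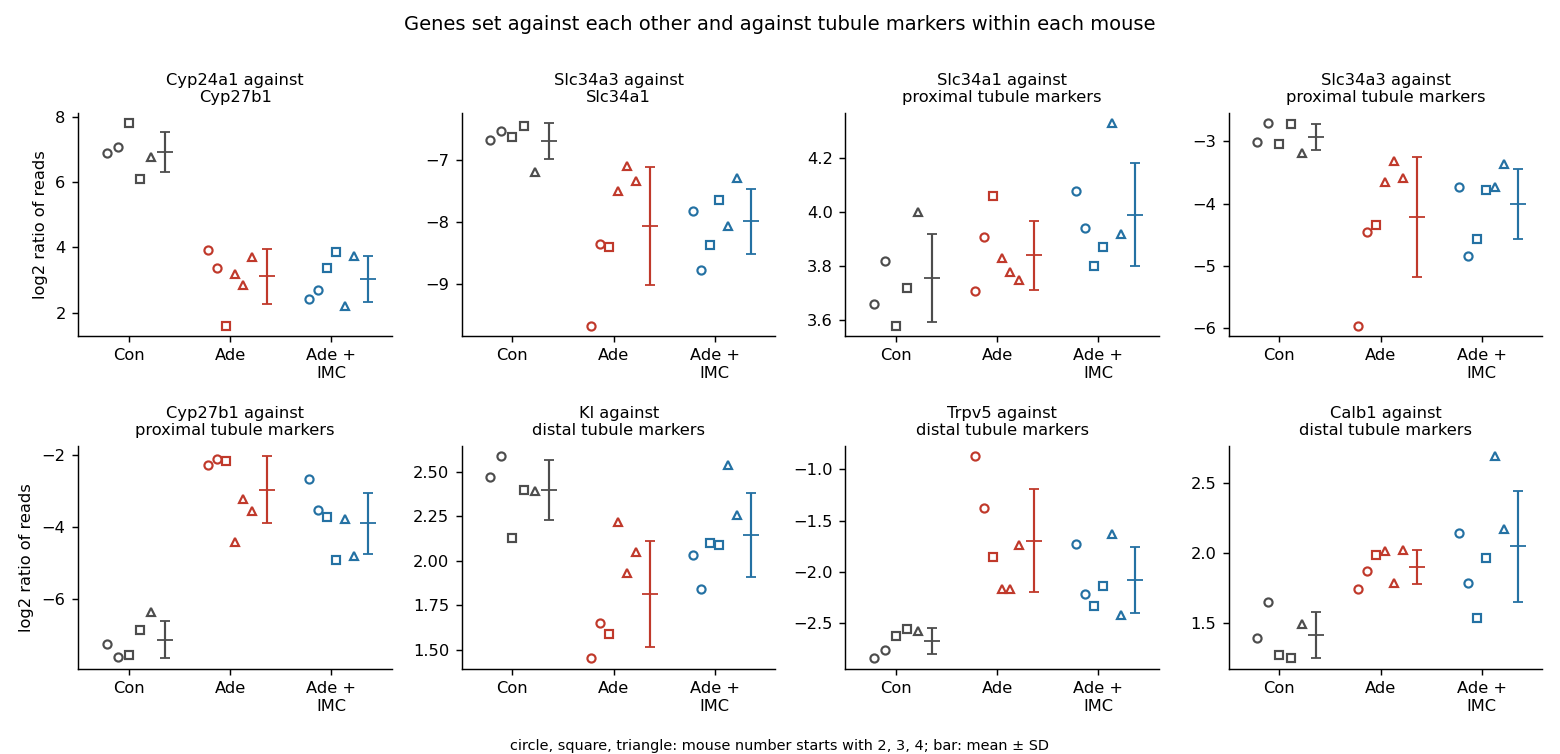
log2 ratios of reads within each mouse (vertical axes, which do not start at 0) for 2 gene pairs and for 6 genes against the mean of their segment's markers, with the group mean ± SD beside the points. The Cyp24a1 to Cyp27b1 ratio separates all Con mice from all adenine-fed mice, whereas Slc34a1 against proximal tubule markers overlaps between groups.

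The receptors for vitamin D and parathyroid hormone both fell. Vdr read 644, 428, 528, 749 and 648 CPM in the Con mice and 174 to 312 CPM, with a median of 224, in the Ade mice. The groups were apart, and the log2 fold change was -1.38 ± 0.16 (SE, adjusted p = 8.24e-06). Its log2 difference lay between -1.85 and -1.28 for each first digit. Pth1r, the receptor for parathyroid hormone, read 610, 554, 530, 676 and 774 CPM in the Con mice and 253 to 496 CPM, with a median of 332, in the Ade mice. The groups again did not overlap, with a smaller log2 fold change of -0.84 ± 0.16 (SE, adjusted p = 0.000536). Pth1r shares 95 of 2925 exonic bases with Myl3 on the opposite strand.

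For both calcium genes of the distal nephron the values of the groups overlapped. Trpv5, the apical calcium channel, read 29.7, 26.4, 27.5, 40.9 and 36 CPM in the Con mice and 23.5 to 38.6 CPM, with a median of 30.2, in the Ade mice. The log2 fold change of -0.095 ± 0.14 (SE) did not pass the test (adjusted p = 0.58). Its sign changed without Con replicate 4 and with scaling to the total count alone. Calb1, the calcium-binding protein calbindin-D28k that carries calcium through these cells, read 560, 562, 408, 573 and 601 CPM in the Con mice. In the Ade mice it ranged from 236 through 361 to 571 CPM (log2 fold change -0.54 ± 0.19, SE, adjusted p = 0.026). The Calb1 call was lost with scaling to the total count alone (log2 fold change -0.25, adjusted p = 0.205, and 0.00131 to 0.205 over 18 alternatives).

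**Figure D3:**
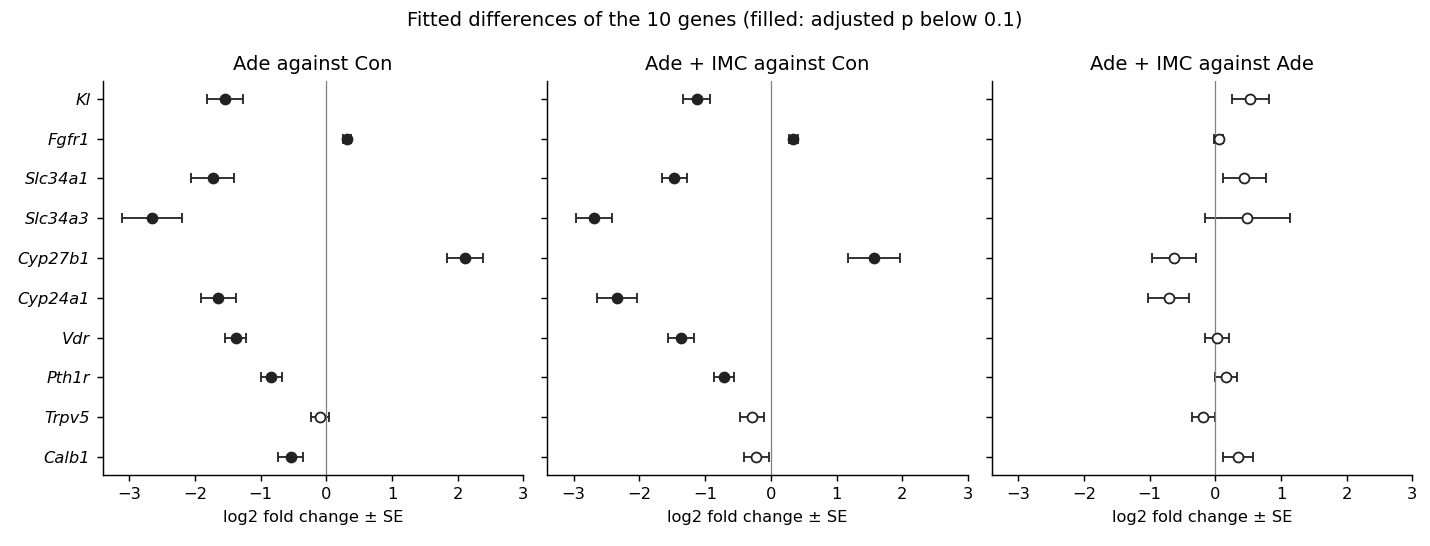
Fitted log2 fold changes ± SE (horizontal axes) of the 10 genes in the comparisons of Ade with Con, Ade + IMC with Con, and Ade + IMC with Ade, where filled points passed an adjusted p of 0.1. In the first comparison 9 points are filled, in the second 8 and in the third 0, and the comparisons with Con share the Con mice.

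Since tubule markers fell as a whole, 6 of the genes were also measured against markers of their segment within each mouse. Of the 8 proximal tubule markers, 7 were tested and all 7 were called lower, their sum going from 7789 to 10233 CPM in Con to 1168 to 4548 CPM in Ade mice. All 5 markers of the distal convoluted and connecting tubule were called lower, from 2226 to 3161 CPM to 1025 to 1981 CPM. Against these, Slc34a1 differed between Ade and Con by only 0.084 on the log2 scale (exact permutation p = 0.353, adjusted 0.424). That value includes Slc7a13, a marker with 1 to 10 reads per mouse. Without it the difference was 0.34 (exact permutation p = 0.00216), so that Slc34a1 had fallen less than the mean of the remaining markers. Slc22a6 (45.6% of its Con mean) and Slc22a8 (36.2%) had fallen less than Slc34a1 (30.1%), and the other markers tested had fallen further. Over all alternatives the difference ran from -0.059 to 0.34.

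Slc34a3 fell beyond the mean of its segment's markers, by 1.28 on the log2 scale (exact permutation p = 0.00649, adjusted 0.0156), and the groups did not overlap. Of the markers tested, Slc5a12 alone fell further, to 13.6% of its Con mean against 15.8% for Slc34a3. Cyp27b1 stood 4.16 higher against the mean of the same markers (exact permutation p = 0.00216, adjusted 0.0104). Both values include Slc7a13, and over all alternatives they ran from -1.46 to -0.93 and from 3.99 to 4.46. In the distal tubule the 3 genes parted. Kl fell beyond the distal markers by 0.58 (exact permutation p = 0.00866, adjusted 0.0173), with an overlap between the groups. Trpv5 was 0.97 higher against these markers (exact permutation p = 0.00649, adjusted 0.0156) and Calb1 0.49 higher (exact permutation p = 0.00216, adjusted 0.0104), both with groups apart. Thus the level of Trpv5 did not pass the test while the listed distal markers fell. Whether these markers and Trpv5 lie in the same part of the distal tubule was not tested.

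Per kilobase of exon, the order of levels in the Con mice ran from Slc34a1 at 1018 ± 156 CPM per kb (SD, n = 5) and Pth1r at 215 ± 33.8 to Cyp27b1 at 1.03 ± 0.469. Kl (115), Calb1 (112), Vdr (106) and Cyp24a1 (90.8 CPM per kb) stood between them, and neighbors among these overlapped. Slc34a3 at 19.6 was apart from the genes above and below it, and Trpv5 (9.9) and Fgfr1 (9.55) overlapped. In the Ade mice Slc34a1 still led at 306 ± 165 CPM per kb (SD, n = 6) but overlapped Pth1r at 120 ± 28.7. Slc34a3 had become the lowest at 3.1 ± 2.53 CPM per kb, beside Cyp27b1 at 4.49 ± 1.15, and their ranges overlapped. In the Ade + IMC mice both stood at the bottom again, at 3.15 ± 1.72 and 3.18 ± 1.58 CPM per kb.

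The adenine-fed mice given IMC were then set against the control diet, with the same Con mice as before, so the 2 comparisons are not independent of each other. Of the 10 genes, 8 were called, 6 lower and 2 higher, where 63.2% of 14578 genes tested were called, 32.3% lower and 30.9% higher. Kl ranged from 313 through a median of 533 to 654 CPM, below all Con mice, and its mean was 47.1% of the Con mean (log2 fold change -1.13 ± 0.20, SE, adjusted p = 0.000349). Slc34a1 ranged from 1170 through 1786 to 2373 CPM (log2 fold change -1.47 ± 0.19, adjusted p = 3.52e-05). Slc34a3 ranged from 3.11 through 6.44 to 15.1 CPM (log2 fold change -2.69 ± 0.28, adjusted p = 6.02e-06). Both transporters were below all Con mice. Of the 10 genes, 7 had values apart from those of the Con mice, which was so for 36.9% of all genes tested.

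Cyp24a1 ranged from 34.9 through 62.8 to 121 CPM in this group, a 5.05-fold lower level than in Con mice (log2 fold change -2.34 ± 0.31, SE, adjusted p = 4.32e-05). Cyp27b1 ranged from 2.61 through 7.73 to 13.9 CPM and was 2.96-fold higher (log2 fold change 1.57 ± 0.40, SE, adjusted p = 0.0044). It overlapped the Con mice through a single animal, Ade + IMC replicate 4, without which the log2 fold change was 1.76. The log2 ratio of Cyp24a1 to Cyp27b1 reads was 3.04 ± 0.70 (SD, n = 6), a difference of -3.89 from the Con mean (exact permutation p = 0.00216, adjusted 0.0104). Vdr (168 to 377 CPM, log2 fold change -1.37 ± 0.20) and Pth1r (262 to 509 CPM, -0.71 ± 0.15) fell, with adjusted p of 8.81e-05 and 0.00136. Fgfr1 (107 to 134 CPM) was again above all Con mice (log2 fold change 0.34 ± 0.07, adjusted p = 0.00114).

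The distal calcium genes did not pass the test. Trpv5 ranged from 16.7 through 26.7 to 35.3 CPM (log2 fold change -0.29 ± 0.18, adjusted p = 0.197) and Calb1 from 287 through 473 to 705 CPM (-0.22 ± 0.19, adjusted p = 0.34). Both changed sign with scaling to the total count alone, to 0.0095 for Trpv5 and 0.07 for Calb1. Without Ade + IMC replicate 5 Calb1 was called lower (adjusted p = 0.0935, and 0.0935 to 0.769 over 18 alternatives). Against the distal tubule markers, which were all 5 called lower here too, Trpv5 was 0.59 higher (exact permutation p = 0.00433, adjusted 0.013) and Calb1 0.63 higher (exact permutation p = 0.00866, adjusted 0.0173). Kl was 0.25 lower against them, which did not pass the test (exact permutation p = 0.0758, adjusted 0.114). Slc34a3 against proximal tubule markers was 1.07 lower (exact permutation p = 0.00433, adjusted 0.013) and Cyp27b1 3.23 higher (exact permutation p = 0.00216, adjusted 0.0104).

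The direct comparison of Ade + IMC with Ade mice asks what IMC changed in the adenine-fed kidney. None of the 10 genes passed the test (limma on log2 of the deposited normalized count + 1), and 0 of 14696 genes tested did, or 0%, while 988 genes, or 6.72%, had an unadjusted p below 0.05. That last count rested in part on single mice, with 1899 genes without Ade replicate 4, 1585 without Ade + IMC replicate 4 and 616 without Ade replicate 2, and 2007 once the leading digit of each mouse label entered the fit as a block. Among the 10 genes, 1 had such a p, Cyp24a1 at 0.039. DESeq2 on the recovered reads called 37 genes, none of the 10 among them, and edgeR on these reads called 0. The groups overlapped for all 10 genes, and 0.204% of all genes tested had groups that did not.

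Kl had normalized counts of 2732 ± 1297 (SD, n = 6) in the Ade and 3744 ± 1039 (SD, n = 6) in the Ade + IMC mice. The groups overlapped, and the log2 difference of 0.53 had a 95% interval from -0.0737 to 1.14 (limma, adjusted p = 0.749). In Ade mice with numbers starting with 2, Kl counts were 1429 and 1861, and the single mouse of the digit 3 had 1897. Those with the digit 4 had 4954, 3174 and 3078. Thus the low Ade mice were those of the digits 2 and 3, and the groups hold these digits unequally, with 3 of the 6 Ade mice and 2 of the 6 Ade + IMC mice in digit 4.

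Within the digits the log2 difference of Kl was 0.93, 0.83 and 0.31. An exact permutation within the digits gave p = 0.0389 for Kl, against 0.123 over all splits, and 0.00556 is the smallest p that the 180 splits within digits allow. With the digit as a block in limma the difference was 0.65 with an interval from 0.219 to 1.07, still short of the threshold (adjusted p = 0.172, where 133 genes or 0.905% of those tested were called). Of the alternatives run, DESeq2 with the same block, added after the data were seen, was the only one to call Kl (adjusted p = 0.0437, and 0.0437 to 0.996 over 21 alternatives). Calb1, at 2753 ± 870 and 3512 ± 1075 normalized counts (SD, n = 6 each), went the same way at 0.70, 0.10 and 0.47 within the digits. Its permutation p was 0.201 over all splits and 0.0444 within digits. With the block in limma its interval ran from 0.119 to 0.807 around 0.46 (adjusted p = 0.217), and the same DESeq2 fit called it (adjusted p = 0.0982, and 0.0982 to 0.996 over 21 alternatives).

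Markers of other cells and of injury also differed in mean between the Ade + IMC and Ade mice, beside the differences of Kl, Calb1 and Slc34a1. The 5 injured tubule markers summed to 24.8 to 31.9 CPM in the Con mice, to 414 to 1345 CPM, with a median of 868, in the Ade mice and to 303 to 806 CPM, with a median of 502, in the Ade + IMC mice. By limma 0 of these 5 were called, and 2 had an unadjusted p below 0.05, both lower in Ade + IMC. The 3 erythroid markers summed to 151 to 206 CPM (median 189) in the Con, 14.1 to 83.1 CPM (median 30.1) in the Ade and 69.8 to 189 CPM (median 88.2) in the Ade + IMC mice, and again 0 of 3 were called while all 3 had an unadjusted p below 0.05, higher in Ade + IMC. None of the 7 proximal and 5 distal tubule markers tested had an unadjusted p below 0.05. The proximal markers summed to a median of 2353 CPM in Ade and 2946 in Ade + IMC mice, and the distal ones to 1336 and 1671 CPM, with ranges that overlapped. Among the other lists such a p was met by 1 of 4 thick ascending limb, 2 of 5 principal cell and 2 of 4 intercalated cell markers, all higher in Ade + IMC, and by 1 of 5 fibroblast markers, which was lower. The part of these cells and of injured tubule and erythroid RNA in the differences of Kl, Calb1 and Slc34a1 was not tested.

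**Figure D4:**
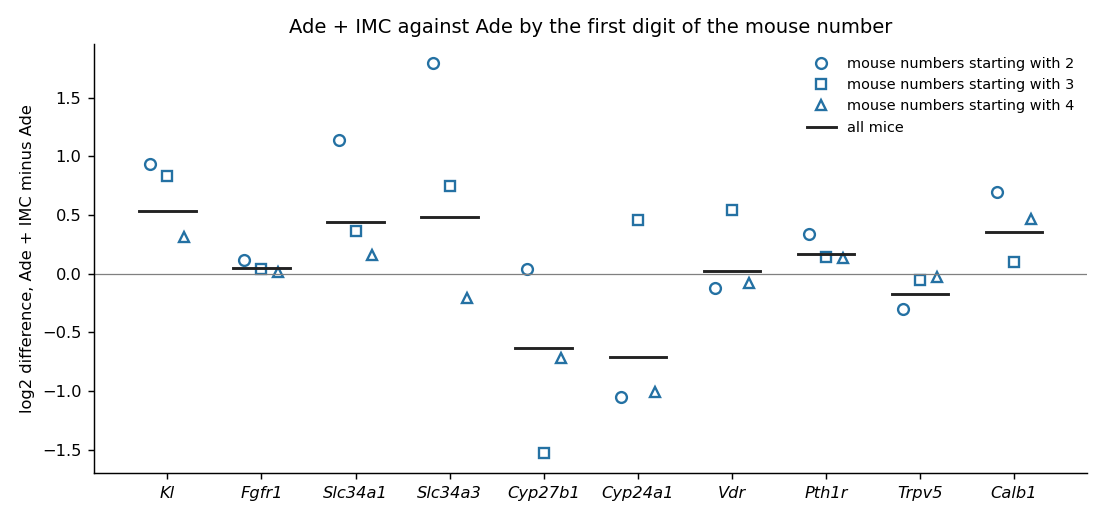
log2 difference between Ade + IMC and Ade mice (vertical axis, deposited normalized counts + 1) for each of the 10 genes, within mice whose numbers start with 2, 3 or 4 (points) and over all mice (bars). All 3 points of Kl are above 0, at 0.93, 0.83 and 0.31, whereas those of Cyp24a1 lie on both sides. The points of the digit 3 rest on 1 Ade mouse.

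Both vitamin D enzymes were lower in mean in the Ade + IMC mice, and neither passed the test. Cyp24a1 had 765 ± 250 normalized counts in Ade and 486 ± 236 in Ade + IMC mice (SD, n = 6 each), a log2 difference of -0.71 with an interval from -1.37 to -0.0414 (limma, adjusted p = 0.717). Its differences within the digits were -1.05, 0.46 and -1.01, so that they did not share a direction. The 0.46, from the digit 3, rested on 1 Ade mouse. Cyp27b1 had 85.6 ± 21.7 and 60.4 ± 30 normalized counts, a difference of -0.63 (interval -1.33 to 0.0654, limma adjusted p = 0.749), and without Ade + IMC replicate 4 it was -0.35. The ratio of the pair hardly differed, by -0.067 on the log2 scale (exact permutation p = 0.894, adjusted 0.894).

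Slc34a1 differed by 0.44 (interval -0.274 to 1.16), and by 1.14, 0.36 and 0.16 within the digits. Leaving out each mouse in turn gave 0.22 to 0.66. With the digit as a block in limma its difference was 0.55 with an interval from 0.0821 to 1.02 (adjusted p = 0.28, and 0.133 to 0.996 over 21 alternatives). Slc34a3 differed by 0.49 (interval -0.9 to 1.87), the widest of the 10 intervals, with mean normalized counts of 54.2 in Ade and 54.8 in Ade + IMC mice. That difference rested on Ade replicate 1, the mouse with 5 reads, without which it was -0.042, and edgeR and DESeq2 on the recovered reads gave -0.0031 and 0.013. Within the digits Slc34a3 differed by 1.79, 0.75 and -0.21. Pth1r (0.16, interval -0.203 to 0.532), Vdr (0.023, interval -0.37 to 0.416) and Trpv5 (-0.18, interval -0.56 to 0.209) had narrower intervals that still take in moderate changes. With mice left out in turn, Pth1r ran from 0.076 to 0.27, Vdr from -0.12 to 0.12 and Trpv5 from -0.26 to -0.051. Fgfr1 was held most tightly, at 0.049 with an interval from -0.0914 to 0.189. Against segment markers, no difference between Ade + IMC and Ade passed the exact permutation test over all splits. Kl stood 0.32 higher over all mice against the distal markers, and exact permutation within digits gave p = 0.00556, the smallest possible. Cyp27b1 stood 0.94 lower over all mice against the proximal markers, and exact permutation within digits gave p = 0.0333.

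Across the 17 mice, the deviations of log2 CPM from the group means were compared between genes as a description, since all values of a mouse share its library and its makeup of cells. Kl deviated together with Slc34a1 (Pearson r = 0.92), Calb1 (0.90), Pth1r (0.84), Slc34a3 (0.81) and Vdr (0.67). Within the 5 Con mice, the 6 Ade mice and the 6 Ade + IMC mice in turn, r was 0.61, 0.96 and 0.95 for Slc34a1 and 0.94, 0.98 and 0.84 for Calb1. It was 0.62, 0.85 and 0.94 for Pth1r, 0.47, 0.94 and 0.58 for Slc34a3 and 0.51, 0.79 and 0.76 for Vdr. The r with Fgfr1 (0.47), Trpv5 (0.30), Cyp27b1 (0.26) and Cyp24a1 (0.035) was lower, and for the last 3 its sign differed between groups. In the same order of groups it was 0.60, -0.21 and 0.73 for Trpv5, 0.51, -0.22 and 0.55 for Cyp27b1, -0.46, -0.15 and 0.47 for Cyp24a1, and 0.78, 0.32 and 0.62 for Fgfr1. Among the 14271 genes tested in all comparisons, the 3 most like Kl were Oxgr1 (r = 0.98), the receptor for alpha-ketoglutarate, Car12 (0.96), a carbonic anhydrase, and Gnpda1 (0.96), an enzyme of glucosamine metabolism. Oxgr1 had 60.1 ± 10.6 CPM in Con (SD, n = 5), 21.8 ± 8.06 in Ade and 27 ± 6.64 in Ade + IMC mice (SD, n = 6 each).

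The other genes of mineral handling were taken from 5 lists by role, also chosen with earlier results of these data known. They hold 71 genes, of which 62 were tested between Ade and Con. Of these, 34 were called lower and 11 higher, or 72.6% against 67.3% of all genes, with a median log2 fold change of -0.32 against 0.019 over all genes. In the phosphate transport list 6 of 10 genes were called lower and 3 higher, or 90% against 67.3% of all genes. Pdzk1, a scaffold that holds Slc34a1 in the apical membrane, fell from 563 ± 75.6 CPM in Con (SD, n = 5) to 149 ± 71.6 in Ade mice (SD, n = 6), with a log2 fold change of -1.91 ± 0.26 (SE, adjusted p = 3.26e-05). Alpl, the tissue-nonspecific alkaline phosphatase, fell by 0.96 on the log2 scale (adjusted p = 9.58e-06). Slc34a2 (NaPi-2b), the cotransporter known best from gut and lung, rose as its relatives fell. It read 15.7, 10.7, 11.4, 11.5 and 7.05 CPM in the Con mice and 37.4 to 130 CPM, with a median of 62.7, in the Ade mice, without overlap (log2 fold change 2.72 ± 0.32, SE, adjusted p = 8.99e-06).

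In the list on FGF23 and Klotho signaling 8 of 15 genes tested were called lower and 2 higher, or 66.7% against 67.3% of all genes. The other FGF receptors Fgfr3 (log2 fold change -1.03 ± 0.10) and Fgfr4 (-0.87 ± 0.13) fell while Fgfr1 rose, with adjusted p of 1.78e-06 and 7.55e-05. Egr1, an immediate early gene that FGF23 signaling is known to induce among many stimuli, rose from 13.3 ± 4.69 to 65.9 ± 17.8 CPM (log2 fold change 2.32 ± 0.24, adjusted p = 2.87e-06). Other listed response genes of this pathway, named after their values were seen, were not called higher. Dusp6, a phosphatase of ERK, fell (log2 fold change -0.39 ± 0.093, adjusted p = 0.00258), and the Sprouty genes Spry1 (0.18 ± 0.11, adjusted p = 0.178) and Spry2 (0.093 ± 0.11, adjusted p = 0.496) did not pass the test. Fgf23 itself, Klb and Phex were not tested. Fgf23 had 0 reads in all Con mice and at most 3 in any adenine-fed mouse, within the limit of 3 reads that a count of 0 allows.

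In the vitamin D list 8 of 14 genes tested were called lower and 2 higher, or 71.4% against 67.3% of all genes. Lrp2 (megalin) and Cubn (cubilin), the endocytic receptors that take up vitamin D with its carrier in the proximal tubule, fell with log2 fold changes of -2.65 ± 0.38 and -2.37 ± 0.31 (SE, adjusted p = 5.22e-05 and 2.27e-05). Cyp2r1, a vitamin D 25-hydroxylase, fell by 1.09 ± 0.37 from low levels of 10 to 25 reads per Con mouse (adjusted p = 0.0205). Gc, the vitamin D binding protein, rose by 0.51 ± 0.17 on the log2 scale (adjusted p = 0.0171).

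In the list on parathyroid hormone and calcium sensing 3 of 7 genes tested were called lower and 2 higher, or 71.4% against 67.3% of all genes. Casr, the calcium-sensing receptor, fell from 104 ± 39.7 CPM in Con (SD, n = 5) to 51.9 ± 21.1 in Ade mice (SD, n = 6), with an adjusted p of 0.0144. Stc2, a stanniocalcin, rose by 1.46 ± 0.18 (adjusted p = 1.57e-05) and Calcr, the calcitonin receptor, by 0.77 ± 0.25 (adjusted p = 0.0173).

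In the list on distal calcium and magnesium handling 9 of 16 genes tested were called lower and 2 higher, or 68.8% against 67.3% of all genes. Egf, a magnesium-regulating hormone of the distal tubule, fell by 2.19 ± 0.46 on the log2 scale and Pvalb (parvalbumin) by 1.76 ± 0.37, with adjusted p of 0.000949 and 0.00101. Trpv6, the calcium channel next to Trpv5, rose. It read 3.08, 1.73, 2.98, 3.87 and 4.57 CPM in the Con mice and 5.95 to 16.7 CPM, with a median of 10.6, in the Ade mice, without overlap (log2 fold change 1.79 ± 0.30, SE, adjusted p = 0.000163). The log2 ratio of Trpv6 to Trpv5 reads, chosen after the values were seen and given without a test, was -3.33 ± 0.34 (SD, n = 5) in Con, -1.48 ± 0.55 in Ade and -1.37 ± 0.33 in Ade + IMC mice (SD, n = 6 each).

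**Figure D5:**
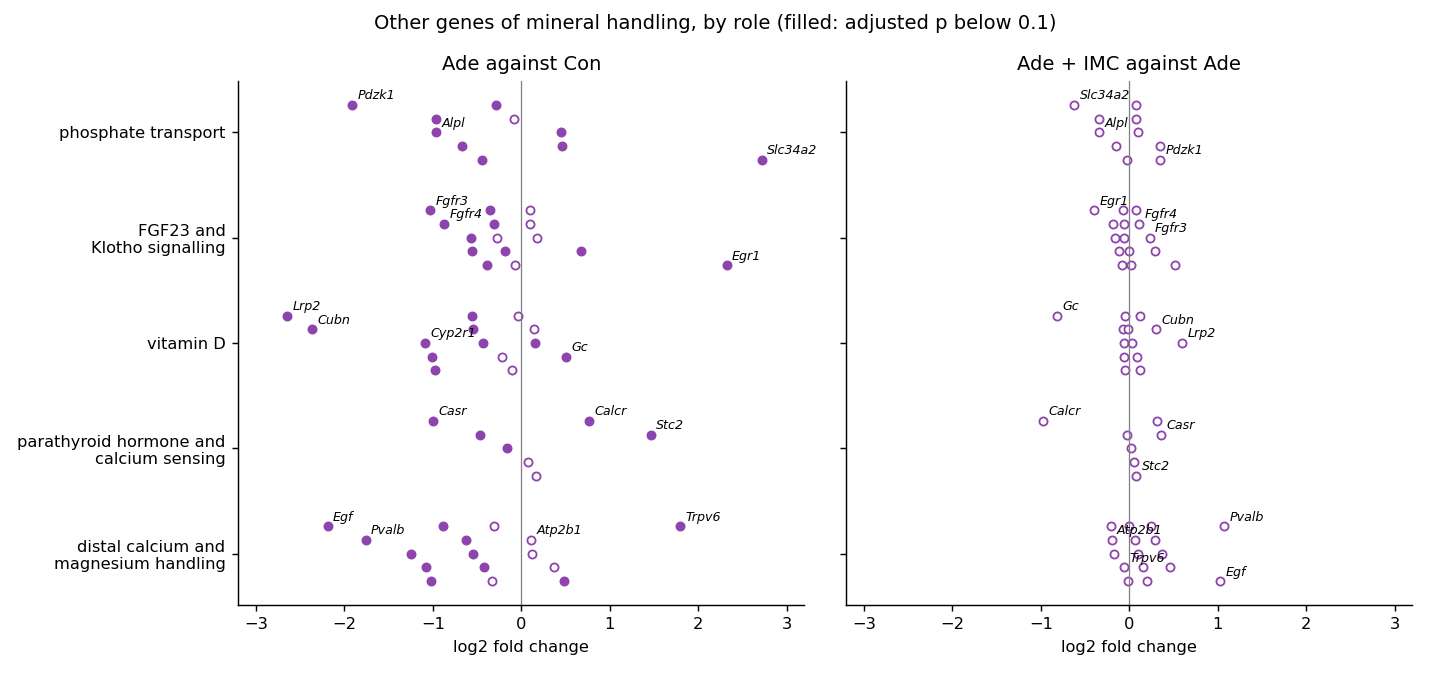
log2 fold changes (horizontal axes) of the genes in the 5 role lists, in the comparisons of Ade with Con and of Ade + IMC with Ade, where each point is a gene, filled at an adjusted p below 0.1, and vertical offsets only spread the points. In Ade against Con the points run from Lrp2 at -2.65 to Slc34a2 at 2.72, whereas in Ade + IMC against Ade all points are open and lie between Calcr at -0.97 and Pvalb at 1.07.

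Between Ade + IMC and Con mice, 33 of the 62 listed genes tested were called lower and 7 higher, or 64.5% against 63.2% of all genes. Lrp2 (log2 fold change -2.24 ± 0.26), Cubn (-2.17 ± 0.25), Pdzk1 (-1.69 ± 0.16) and Egf (-1.54 ± 0.20) fell, and Slc34a2 (2.01 ± 0.26), Trpv6 (1.65 ± 0.27), Egr1 (1.84 ± 0.18) and Stc2 (1.51 ± 0.19) rose, all with adjusted p of at most 0.000192. Calcr (-0.24 ± 0.31) and Gc (-0.31 ± 0.22) did not pass the test.

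Between Ade + IMC and Ade mice 0 of 61 listed genes tested were called, and 7 of them, or 11.5% against 6.72% of all genes tested, had an unadjusted limma p below 0.05. Both shares moved with single mice, to 14 listed genes or 23% against 12.9% of all genes without Ade replicate 4, and to 4 listed genes or 6.56% without Ade replicate 2 (against 4.19%) or Ade + IMC replicate 6 (against 5.01%). Without Ade + IMC replicate 4 they were 14.8% and 10.8%, and with the first digit as a block 24.6% and 13.7%. Of the 7 genes, Calcr (log2 difference -0.97, unadjusted p = 0.00144), Gc (-0.82, 0.00247), Egr1 (-0.40, 0.0339), Alpl (-0.34, 0.0185) and Atp2b1 (-0.20, 0.00995), a calcium pump, were lower in mean in the Ade + IMC mice, with limma adjusted p from 0.643 to 0.715. Pvalb (1.07, 0.0277) and Egf (1.03, 0.032) were higher in mean, both with an adjusted p of 0.715. With the first digit as a block, limma called Gc alone among the listed genes. Calcr had 25 to 43 reads in the Ade and 12 to 23 reads in the Ade + IMC mice, and its normalized counts overlapped between the groups.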

How the data were processed

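Kidney RNA of 17 mice was read as single-end libraries (TruSeq kit). The paper's methods name STAR 2.3.1 and mm10, and the submitters' processing notes list Trimmomatic 0.39, FastQC 0.11.8, Bowtie2 2.2.5, HTSeq 0.9.1 and DESeq2 without their roles. Annotation release and strand use are not given in the sources used here. The authors deposited the raw count per gene of Con and Ade mice and, for Ade and Ade + IMC mice, a signal, which is the count divided by DESeq2's size factor. All nonzero values (100%) of the deposited signal were whole multiples of 1 read within 0.01, and for the Ade mice, present in both tables, 0 recovered values departed from the raw count. The authors' table of their own comparison (fold changes and p-values) served only to pair symbols with gene IDs.

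Ade with Con and Ade + IMC with Con were compared by edgeR 4.0.16 (quasi-likelihood, TMM, its filter on low counts) over the 20634 genes common to both tables where Ade + IMC reads entered. Ade + IMC and Ade were fitted on log2(normalized count + 1) with limma 3.58.1 and its mean-variance trend, for genes with a mean of at least 10. DESeq2 1.42.0 was an alternative (R 4.3.3). Log2 ratios added 0.5 to each count, and their two-sided exact permutation tests were also run among mice whose numbers share a first digit. Scripts were tested on simulated data. Replicates were numbered in accession order, and p-values set differences between groups against the spread between mice. Within the groups no library was a copy of another (lowest chi-square over its degrees of freedom 4.21). Upstream windows came from RefSeq (GRCm38.p6) and exon lengths from GENCODE on GRCm38. The 10 genes and all lists were chosen with earlier results of these data known. Named were all 10 genes, in each role list up to 3 called genes of largest change on adenine and any gene with a limma p below 0.05 for IMC, and the 3 genes most like Kl.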

Additional observations from a re-analysis of the deposited data

Results flagged for a closer look

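2 values stood apart from the rest of their group by Dixon's ratio. Slc34a3 in Con replicate 4 was 62.2 CPM, above the 38.7 to 45 CPM of the other Con mice. Calb1 in Con replicate 3 was 408 CPM, below their 560 to 601 CPM, and this mouse also had the lowest Kl of the Con group at 738 CPM. Chance flags about 1 in 20 such groups, and 54 groups of values were examined, so that 2.7 would be expected.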

How the results depend on the processing

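The fold changes of Kl, Slc34a1, Slc34a3, Cyp27b1, Cyp24a1, Vdr, Pth1r and Fgfr1 against Con kept their direction and their call under all 18 alternatives of each comparison. Scaling to the total count alone, added after the data were seen, moved the median log2 fold change of all genes from 0.019 to 0.317 in Ade against Con and from -0.0157 to 0.274 in Ade + IMC against Con. It moved the split of calls from 4706 lower and 5135 higher to 2497 and 7990, and from 4715 and 4504 to 2247 and 7531. Between Ade + IMC and Ade, DESeq2 with the first digit as a block (also added) called 2 of the 10 genes, Kl and Calb1, and 6 of the role lists (Slc20a1, Calcr, Gc and Egr1 lower, Pvalb and Egf higher). DESeq2 without the block called 1 (Calcr) and limma with the block 1 (Gc). Over all genes, the block moved the calls from 0 to 133 by limma, from 0 to 104 by edgeR and from 37 to 591 by DESeq2. Single mice were not paired, since no source says that the numbers in their labels match animals between groups.

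Several comparisons with segment markers passed the exact permutation test only in an alternative, and the cause was not tested. Slc34a1 against proximal markers, without Slc7a13, was 0.34 higher in Ade than in Con mice (-0.059 to 0.34 over all alternatives). In Ade + IMC against Con it was 0.23 with all markers (exact permutation p = 0.0541, adjusted 0.0927), and -0.004 to 0.46 over all alternatives. It was 0.36 without Slc22a6, 0.32 without Slc22a8, 0.46 without Slc7a13 and 0.25 without Slc27a2. With each mouse left out in turn it was 0.16 to 0.29, passing without Ade + IMC replicate 3 or Con replicate 5. In Ade + IMC against Ade it was 0.08 to 0.19, passing without Ade replicate 3. Kl against distal markers in Ade + IMC against Con was -0.34 without Klhl3, -0.26 without Sall3 and -0.33 to -0.19 with mice left out, passing without Ade + IMC replicate 5 or Con replicate 3. Over all alternatives it ran from -0.34 to -0.13. In Ade + IMC against Ade it was 0.32 over all mice, passing when permuted within digits, and 0.32 without Wnk4. With mice left out it was 0.24 to 0.41, passing without Ade + IMC replicate 2 or Ade replicate 4. Cyp27b1 against proximal markers was -0.94 over all mice, passing when permuted within digits. With mice left out it was -1.23 to -0.73, passing without Ade + IMC replicate 1 or Ade replicate 4. Depth limits Cyp27b1 in the Con mice (10 to 33 reads) and Slc34a3 in the Ade mice (5 to 110 reads).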
